A study of Drosophila melanogaster with 3 samples.

Results

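Divergent promoter regions are stretches of the fly genome that lie between or beside genes transcribed away from each other and that were recovered with a GFP-tagged chiffon protein. They were chosen by position alone. A region of the authors' thresholded list on build dm6 was a member when its summit, the point of highest signal, lay within 500 bp of transcription start sites (TSSs) of at least 2 different protein-coding genes, with at least 1 such TSS on each strand. This held for 816 of 5035 regions, or 16.2% (95% exact Clopper-Pearson interval 15.2 to 17.3). It held for 36.3% of the 2245 regions that had any protein-coding TSS within 500 bp. The remaining promoter regions comprised 1383 at a single gene and 46 at several genes of 1 strand, and 2790 regions had no such TSS near. Intervals here and below cover counting error only, and regions are not replicates of the experiment.

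The study was a chromatin immunoprecipitation with sequencing (ChIP-seq) on whole Drosophila melanogaster embryos, 0 to 24 hours old and of both sexes. All embryos came from the strain chif-RB-GFP, a transgenic line in which GFP is fused to the C-terminal end of chiffon. The notes name the fused product chif-RB for replicate 1 and chif for replicates 2 and 3. There were 3 biological replicates of 1 group, the chromatin was sonicated to 200 to 800 bp, and anti-GFP was the antibody. The replicates are 3 separate biosamples of the same line, so their spread does not cover another insertion or line, and a whole embryo mixes all tissues and stages of that day. The lists were made against 1 control file, and no library from untagged embryos is analysed, so recovery of open promoters in general cannot be told apart from binding of chiffon.

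A divergent, or bidirectional, promoter serves neighbouring genes that start close together on opposite strands and share the DNA between them. Such gene pairs are common in the compact fly genome, many of their genes are used in most cells, and insulator-associated proteins such as BEAF-32 and the replication-related factor Dref are known to bind many of them. Chiffon is the fly counterpart of Dbf4, which switches on the replication kinase Cdc7, and its gene also yields a product that works with the acetyltransferase Gcn5.

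The DNA between both start sites is shown for the 6 members of highest signal that have at most 300 bp between the TSSs, the summit between them and no UTR there, and for 1 further member that carries the core of Motif 1, an element bound by the zinc finger protein M1BP. Each line runs 5′ to 3′ on the plus strand of build dm6 (RefSeq, Release 6), from the base after the minus-strand TSS to the base before the plus-strand TSS, so that transcription leaves both ends outward. Capitals mark CGATA, the core of the BEAF-32 site, which reads TATCG when it lies on the opposite strand. They also mark the DNA replication-related element (DRE) TATCGATA, which is bound by Dref and holds CGATA on both strands, and GGTCACAC, the core of Motif 1. The intervals are 3R:15229409-15229664 for Art3/mRpS10, 3L:5139396-5139618 for Tcs5/CHMP2B, 3L:9426759-9427009 for Atat/Shc, 3R:8650797-8651083 for Mkk4/SLIRP2, 3L:19612200-19612454 for Lon/PIG-F, 3R:31616161-31616302 for Mnat9/CG1792 and 3R:23767489-23767711 for CG10214/CG10375.
Art3/mRpS10: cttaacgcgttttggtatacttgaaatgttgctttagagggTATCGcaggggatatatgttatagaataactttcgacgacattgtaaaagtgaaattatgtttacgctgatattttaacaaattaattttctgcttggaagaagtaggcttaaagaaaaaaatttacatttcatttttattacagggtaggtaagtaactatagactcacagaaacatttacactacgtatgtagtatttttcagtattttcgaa
Tcs5/CHMP2B: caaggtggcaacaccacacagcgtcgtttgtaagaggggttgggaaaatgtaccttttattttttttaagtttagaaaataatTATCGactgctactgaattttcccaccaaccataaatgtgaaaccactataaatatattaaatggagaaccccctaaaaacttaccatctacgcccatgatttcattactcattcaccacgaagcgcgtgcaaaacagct
Atat/Shc: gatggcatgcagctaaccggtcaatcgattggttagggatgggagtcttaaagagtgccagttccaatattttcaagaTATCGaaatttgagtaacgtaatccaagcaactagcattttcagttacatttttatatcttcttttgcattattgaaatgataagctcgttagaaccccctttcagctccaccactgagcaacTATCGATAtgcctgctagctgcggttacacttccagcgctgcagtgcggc
Mkk4/SLIRP2: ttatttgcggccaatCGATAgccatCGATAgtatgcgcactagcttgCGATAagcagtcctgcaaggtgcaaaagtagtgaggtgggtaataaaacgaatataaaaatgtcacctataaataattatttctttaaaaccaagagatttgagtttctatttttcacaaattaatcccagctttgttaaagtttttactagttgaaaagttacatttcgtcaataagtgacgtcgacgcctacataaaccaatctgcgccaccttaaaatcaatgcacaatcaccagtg
Lon/PIG-F: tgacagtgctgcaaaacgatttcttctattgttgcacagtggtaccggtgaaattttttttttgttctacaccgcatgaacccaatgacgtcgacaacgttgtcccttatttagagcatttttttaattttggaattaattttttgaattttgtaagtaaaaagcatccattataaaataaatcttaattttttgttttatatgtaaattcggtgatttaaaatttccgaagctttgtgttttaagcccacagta
Mnat9/CG1792: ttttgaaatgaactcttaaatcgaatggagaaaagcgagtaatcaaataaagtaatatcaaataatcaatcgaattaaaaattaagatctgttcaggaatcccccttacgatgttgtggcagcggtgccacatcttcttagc
CG10214/CG10375: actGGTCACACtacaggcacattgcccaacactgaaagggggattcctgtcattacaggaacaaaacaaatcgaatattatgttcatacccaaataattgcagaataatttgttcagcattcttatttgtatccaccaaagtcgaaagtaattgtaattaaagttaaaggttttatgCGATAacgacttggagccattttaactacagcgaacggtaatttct

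The printed promoters differ in what they hold. The interval of Atat/Shc has 1 DRE, and that of Mkk4/SLIRP2 has 3 copies of CGATA, all towards the Mkk4 end and more than 100 bp from the summit. Those of Art3/mRpS10 and Tcs5/CHMP2B have 1 CGATA each. Lon/PIG-F and Mnat9/CG1792 have none of these letters between their start sites, although their regions rank 54 and 55 in the list. CG10214/CG10375, of rank 907, has both a Motif 1 core and a CGATA. Their GC content runs from 30.1% in Art3/mRpS10 to 43.0% in Atat/Shc.

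Replicate 2 stood apart from the others, and results are therefore given for each replicate. Each replicate has its own list of 30000 regions, from which the 5035 of highest signal (its top regions) were taken. By the same rule 804, 644 and 806 of the top regions of replicates 1, 2 and 3 were divergent promoter regions, a mean of 751 ± 93.0 (SD, n = 3), or 15.97%, 12.8% and 16.0% of each list. Replicates 1 and 3 were close to each other and replicate 2 had fewer. Single-gene promoter regions were likewise fewer in replicate 2, with 1057 against 1526 and 1446 in replicates 1 and 3. The part that depth, antibody recovery or the embryos had in this was not tested, and the depth of each library is unknown because the lists hold no read counts.

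Almost all members fitted the name head-to-head. In 804 of 816 (98.5%, interval 97.4 to 99.2) the nearest minus-strand TSS lay to the left of the nearest plus-strand TSS, so the genes point away from each other, and in 12 they did not. The summit lay between both TSSs in 668 members (81.9%, interval 79.0 to 84.4), and in 136 head-to-head members it lay outside them, by 282 bp at most. In the top regions of replicates 1, 2 and 3 the summit lay between both TSSs in 78.0%, 82.6% and 80.3% of divergent regions (80.3% ± 2.31, SD, n = 3). All 3 replicates thus gave a share within 5 percentage points of the others. The members reached 1587 genes, or 55.1% of the 2879 genes that had a thresholded summit within 500 bp of a TSS.

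The shared promoters were short. The distance between the nearest head-to-head TSSs had a median of 278 bp, with quartiles of 203 and 375 bp and a range of 6 to 717 bp over 804 members. Its medians in replicates 1, 2 and 3 were 271.5, 295.5 and 274 bp, so that of replicate 2 was the longest. Of all 2462 adjacent head-to-head pairs at most 1000 bp apart, 408 have TSSs at most 100 bp apart and 598 over 500 bp. Among the 804 members these classes hold 95 and 75. The rule keeps out pairs with a TSS over 500 bp from the summit, which thins the longest distances. The smallest distances were 6 bp in CG3032/CG4593 and 8 bp in SerRS/CG17260, SerRS being seryl-tRNA synthetase. Those with the largest were CG2246/CG31021 with 717 bp, mRpS25/nmdyn-D6 with 695 bp and the neprilysin-like genes Nepl19/Nepl20 with 670 bp.

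How far the summit sat from the middle of the shared promoter varied with the length of the promoter. Over all head-to-head members its median distance from the midpoint was 65.5 bp (quartiles 27 and 118 bp), and 325 of 804 (40.4%) lay within 50 bp of the midpoint. The replicates gave medians of 67.5, 65.5 and 66.5 bp (66.5 ± 1.00, SD, n = 3). There was no lean to either strand, as the median offset towards the plus-strand gene was 2.75 bp. In the classes of TSS distance up to 100 bp, to 200, to 300, to 400, to 500 and beyond 500 bp, which hold 95, 100, 266, 187, 81 and 75 members, the median distance from the midpoint was 56, 41.3, 45, 82.5, 132 and 109 bp. It was thus largest from 400 to 500 bp and lower again beyond. Both TSSs had to lie within 500 bp of the summit, so the rule itself limits this distance more tightly in longer promoters. The part of the rule in the lower value beyond 500 bp was not tested. In that class from 400 to 500 bp, replicates 1, 2 and 3 gave 134, 99 and 137 bp. Over the same classes the nearer TSS lay at a median of 33, 48, 82.5, 92, 88 and 171 bp from the summit, with little change between 200 and 500 bp in the thresholded list. Replicate 2 had 86, 98 and 125 bp in those middle classes, so there it was farther at 400 to 500 bp.

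When the summit lay between the TSSs, the nearer one was at a median of 85 bp and the farther at 207 bp. At single-gene promoter regions the summit lay upstream of its TSS in 1141 of 1383, at a median of 156 bp. Part of this gap follows from the rule, since a summit between TSSs that are close together cannot lie far from either. In promoters at most 100 bp long the summit was between both TSSs in 30.5% of 95 members. That share was 65% from 100 to 200 bp, 90.6% from 200 to 300 bp and 95.2% from 300 to 400 bp. Part of this rise also follows from the rule, since longer promoters leave more room between the TSSs and less outside them. Beyond 500 bp the rule allows no summit outside, and all 75 members had it between.

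**Figure D1:**
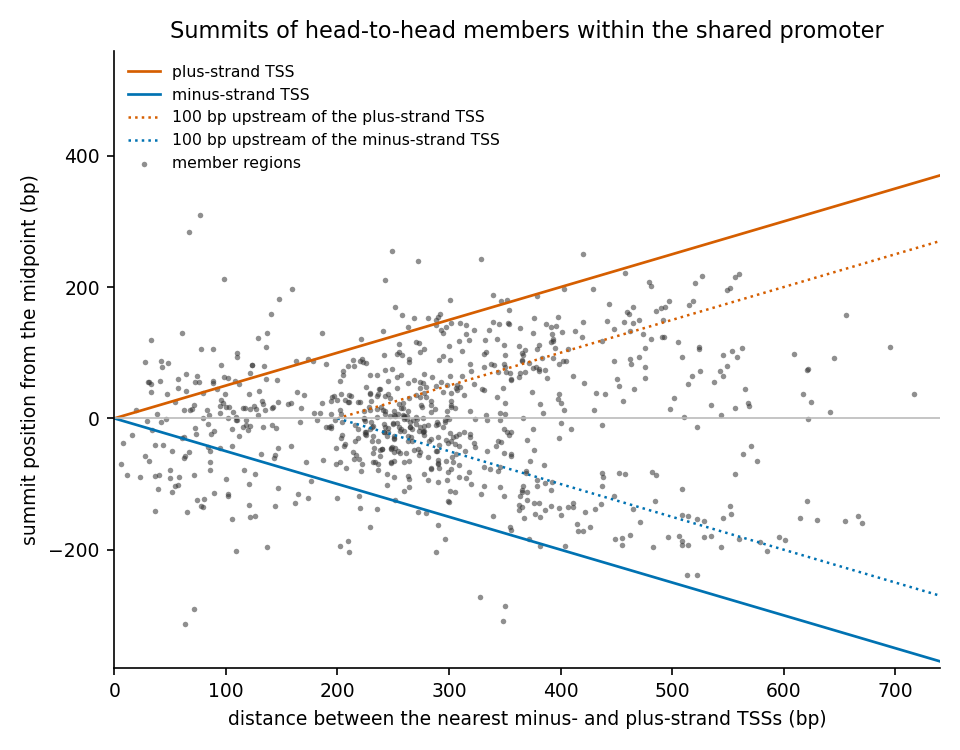
Position of the summit (bp from the midpoint, positive towards the plus-strand gene) against the distance between the nearest minus- and plus-strand TSSs (bp), 1 point for each of the 804 head-to-head members. Solid lines mark both TSSs and dotted lines 100 bp upstream of each; points gather at the midpoint near the median distance of 278 bp and part into an upper and a lower band at longer distances.

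The strongest member was Chro/Ssl1, at rank 5 of the whole list with a signal of 2867. Chro encodes a chromodomain protein of interbands and the spindle matrix, and Ssl1 a subunit of the transcription and repair factor TFIIH. Its TSSs are 105 bp apart and the summit lay outside them, 101 bp inside Chro. It ranked 7, 3 and 5 in replicates 1, 2 and 3.

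Next came Art3/mRpS10, at rank 8 of the thresholded list, pairing an arginine methyltransferase with a protein of the small mitochondrial ribosomal subunit. Its summit at 3R:15229521 was 113 bp from the Art3 TSS and 144 bp from the mRpS10 TSS, and its ranks were 8, 7 and 8. Tcs5/CHMP2B pairs a kinase needed to modify tRNAs with a component of the membrane-cutting ESCRT-III complex. Its summit was 113 and 111 bp from the TSSs, almost at the midpoint, and its ranks were 12, 9 and 14. Of the 12 members of highest signal, Tcs5/CHMP2B had the summit closest to the midpoint.

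In mRpS23/CenG1A the TSSs are 492 bp apart. The summit was 96 bp from CenG1A, which encodes a GTPase-activating protein for Arf, and 396 bp from mRpS23, another mitochondrial ribosomal protein. It ranked 13, 12 and 13. Atat/Shc, for a tubulin acetyltransferase and an adaptor of receptor tyrosine kinases, ranked 44, 8 and 29, the widest spread of ranks among these first 5. Mkk4/SLIRP2, for a kinase of the JNK pathway and a mitochondrial RNA-binding protein, ranked 40, 28 and 39.

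The rest of the 12 were Fbw5/CG9147, Pdrg1/Pal1, CG5757/CG5098, tank/CG12194, CG8372/CG8360 and Pex11ab/CG8320, at thresholded ranks of 18 to 53. Pal1 encodes an enzyme that matures amidated peptides and Pex11ab a peroxisome protein. Their ranks ran from 22 to 60 in replicate 1, from 18 to 64 in replicate 2 and from 17 to 64 in replicate 3. All 12 were thus near the head of the list in every replicate. Among the 100, 500 and 1000 strongest thresholded regions there were 25, 101 and 186 members, beside 29, 162 and 298 single-gene regions. Members were thus 25%, 20.2% and 18.6% of these regions, against 16.2% of the whole list. Single-gene regions made up 27.5% of the whole list.

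Lower in the list, ranks varied more. E(z)/Cnep1r2, with the gene of the H3K27 methyltransferase, ranked 4976, 469 and 1339 in replicates 1, 2 and 3. CG1602/PIG-G ranked 4984, 786 and 1727. In both, replicate 1 was the weakest. The pair CG10747/Pyroxd1 holds 2 members. The one with the summit at 2L:20091570 ranked 5023 and 635 in replicates 1 and 2, but the region that holds it in replicate 3, of rank 251, has its summit 158 bp away and also holds the other member, at 2L:20091367. Its ranks therefore mix different summits. These 3 members have the widest spread of rank among those found in the top regions of all 3 replicates.

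The median signal of members was slightly above that of single-gene regions over the whole list. Within the higher-signal 50% of the list the order of the medians was reversed. The median signal was 196 (quartiles 142 and 307) for members, 177 for single-gene regions and 179 for all thresholded regions, in the authors' own units, which serve only for ranking within a list. As percentiles of rank within the list, where the strongest region is at the top, the medians were 55.9 and 49.1, a difference of 6.80. The differences in replicates 1, 2 and 3 were 9.29, 9.85 and 4.19 (7.78 ± 3.12, SD, n = 3; exact sign-flip permutation test, two-sided, p = 0.25). With 3 replicates 0.25 is the smallest p this test can give, here and below. The difference was -6.00 in the higher-signal 50% of the list and -1.13 among regions found in the top regions of all 3 replicates. It was -4.64, 5.97 and -3.23 among regions in the top regions of both other replicates when replicates 1, 2 and 3 were left out in turn, so it changed direction without replicate 1 or replicate 3.

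Whether head-to-head promoters hold a summit more often than others was asked with windows of equal length, without reference to the members. There are 2462 adjacent head-to-head pairs with TSSs at most 1000 bp apart. A 500 bp window on the midpoint held a thresholded summit in 759 of them (30.8%, interval 29.0 to 32.7). In replicates 1, 2 and 3 it held a top summit in 30.1%, 24.4% and 30.6% (28.4% ± 3.42, SD, n = 3). Of 7983 isolated genes, with no TSS of another protein-coding gene within 1000 bp, 614 (7.69%, interval 7.12 to 8.30) had a thresholded summit in the 500 bp window on their outermost TSS. Replicates gave 8.62%, 4.71% and 8.31% (7.21% ± 2.17, SD, n = 3). The share was 14.7% over all 13968 protein-coding genes, which puts the pairs above that background and the isolated genes below it.

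Head-to-head pairs were thus above isolated genes by 23.1 percentage points in the thresholded list. The differences were 21.4, 19.7 and 22.3 in replicates 1, 2 and 3 (21.1 ± 1.32, SD, n = 3; exact sign-flip permutation test, two-sided, p = 0.25), so all 3 lie on the same side and the spread between replicates is small beside them. A window on a pair covers the promoters of 2 genes and one on an isolated gene covers 1, and the difference was not divided by this number. The genes also differ in kind. An alternative chosen after the data were seen therefore used 14 lists of broadly used functions, described with the gene groups. It took isolated genes of these lists and pairs with at least 1 gene in them. The other gene of such a pair could be of any kind, so kind was held alike only in part. There, 157 of 402 pairs (39.1%) and 36 of 201 isolated genes (17.9%) had a thresholded summit. Replicates gave 38.8% and 21.4%, 27.6% and 6.47%, and 38.1% and 21.4%. Another such alternative, isolated windows centred 100 bp upstream of the TSS, gave a difference of 22.3 points. The difference was 13.9 points in the higher-signal 50% of each list and 14.4 points over regions backed by all 3 replicates, both of which hold fewer regions. For the same reason it was 15.4 points without replicate 3.

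The share of pairs with a summit was highest at intermediate distances. With TSSs over 200 and up to 300 bp apart, 47.9% of 512 pairs had a thresholded summit, and replicates 1, 2 and 3 gave 44.1%, 37.5% and 46.5%. From 300 to 400 bp the share was 42.2% of 367 pairs. It was lower on both sides, with 25.5% of 408 pairs at most 100 bp apart, 29.6% of 334 pairs from 100 to 200 bp, 28.4% of 243 from 400 to 500 bp and 14.5% of 598 beyond 500 bp. The peak at 200 to 300 bp was present in each replicate. A window of 500 bp no longer reaches either TSS once they are more than 500 bp apart, so the last class is not on the same footing.

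**Figure D2:**
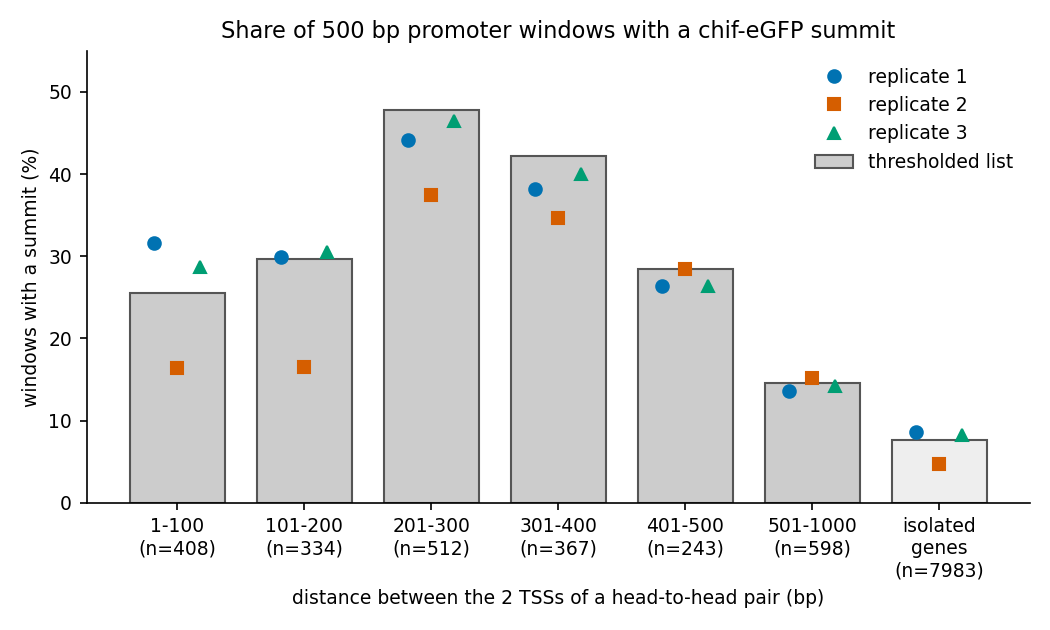
Share of 500 bp windows with a chif-eGFP summit (%, from 0) by the distance between the TSSs of a head-to-head pair (bp), with isolated genes at the right; bars are the thresholded list and points the top regions of each replicate. The class from 201 to 300 bp is the highest in every replicate, at 44.1%, 37.5% and 46.5%, and isolated genes are at 4.71% to 8.62%.

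The shortfall of replicate 2 was largest at short promoters. For pairs at most 100 bp apart, 31.6%, 16.4% and 28.7% had a top summit in replicates 1, 2 and 3, and from 100 to 200 bp the shares were 29.9%, 16.5% and 30.5%. From 400 to 500 bp they were 26.3%, 28.4% and 26.3%, with replicate 2 the highest. A top summit in replicates 1 and 3 and not in replicate 2 was found at 72 of 742 pairs (9.70%) with TSSs at most 200 bp apart and at 99 of 1720 (5.76%) with more. This difference concerns 1 library and was not tested. Over all distances, 436 pairs (17.7%) had a top summit in all 3 replicates and 1501 (61.0%) in none.

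The same appears among the members. A member is called backed by a replicate when its summit lies inside one of the top regions of that replicate. All 3 replicates backed 465 members (57.0%), against 56.2% of all 5035 thresholded regions, so members stood near the background. Replicate 1 backed 87.0% of members against 85.1% of all regions, replicate 2 backed 69.5% against 69.6%, and replicate 3 backed 89.3% against 88.1%. Each share is close to its background. Single-gene regions were backed by all 3 replicates in 51.4% and by replicate 2 in 60.9%. The replicates went into the pooled reads behind the thresholded list, so backing is a description.

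Backing by replicate 2 varied with the distance between the TSSs. It backed 56.8% of members with TSSs at most 100 bp apart and 53% from 100 to 200 bp, but 74.1% from 200 to 300 bp and 73.8% from 300 to 400 bp. Replicate 1 backed between 82.7% and 90.5% in every class and replicate 3 between 87.7% and 92%. The windows of 100 bp to either side of the summit had a median GC content of 38.8% in both classes up to 200 bp and 33.8% in both classes from 200 to 400 bp. Their part in the lower backing was not tested. The summit itself was stable where a member lay in any of the 30000 regions of a replicate, with a median shift of 12, 21 and 12 bp in replicates 1, 2 and 3 over 815, 663 and 808 members.

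**Figure D3:**
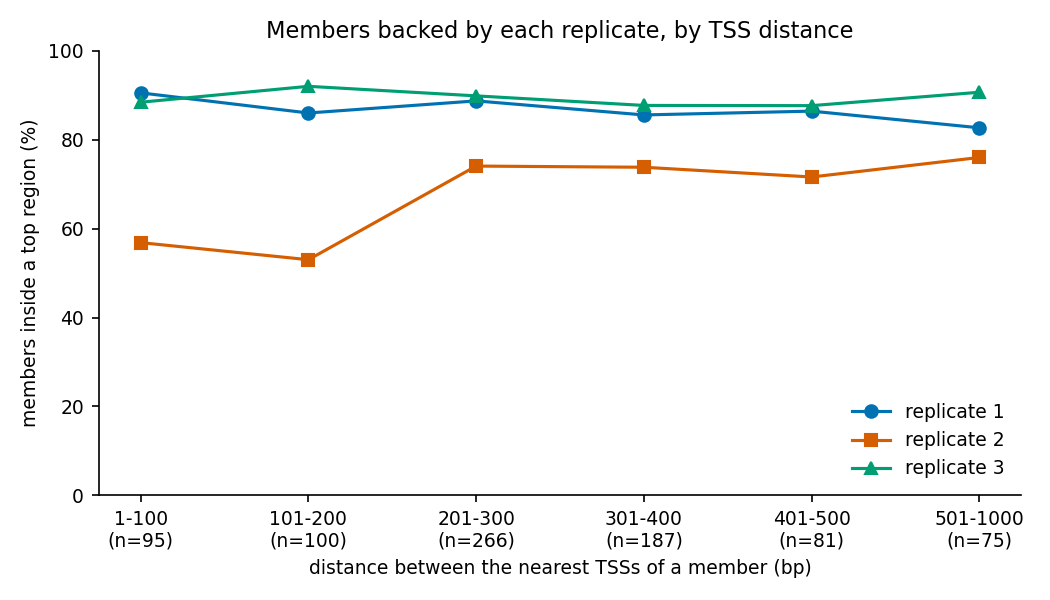
Share of members whose summit lies inside one of the 5035 top regions of each replicate (%, from 0) by the distance between the nearest TSSs (bp). Replicates 1 and 3 stay between 82.7% and 92%, and replicate 2 is at 56.8% and 53% in the classes up to 200 bp and at 71.6% to 76% above.

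The share of genes at a member ranged from 41.1% for mitochondrial ribosomal proteins to 0 for cuticle proteins, neural and glial markers and segmentation genes. Over all 13968 protein-coding genes, 11.4% had a TSS within 500 bp of a member and 20.6% had one within 500 bp of any thresholded summit. Of 637 genes in the 14 lists of broadly used functions, 161 (25.3%) were at a member. These genes are also in head-to-head pairs more often, 410 of 637 (64.4%) against 4875 of 13968 (34.9%). Among genes in a pair, 39.3% of these and 31.4% of all were at a member. The gap is therefore smaller once the arrangement of the genes is held alike. No list was tested.

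Of 73 mitochondrial ribosomal proteins, which build the ribosome inside mitochondria, 30 (41.1%) were at a member, and the top regions of replicates 1, 2 and 3 gave 26, 19 and 26. In this list 58 genes are in a pair and 30 of them (51.7%) were at a member, whereas none of the 13 isolated genes had a thresholded summit. Over all protein-coding genes, 950 of 7983 isolated genes had one, counted as for the lists and not in the fixed window used above. Art3/mRpS10 and mRpS23/CenG1A, described above, are the strongest members with a mitochondrial ribosomal protein. Of 85 cytoplasmic ribosomal proteins 29 (34.1%) were at a member, with 27, 14 and 29 in the replicates. All 29 are among the 52 in a pair (55.8%), and here 17 of 31 isolated genes had a summit as well. The strongest was RpS27/Nup37, which pairs a small-subunit protein with a nuclear pore protein, at thresholded rank 207 and ranks 143, 849 and 171 in the replicates. Ripalpha/RpL7, with TSSs 30 bp apart, ranked 234 and then 163, 2284 and 141. Both were weakest in replicate 2.

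Of 44 DNA repair genes 15 (34.1%) were at a member, all among the 31 in a pair, and the replicates gave 12, 12 and 14. The gene of the checkpoint kinase ATM, tefu, lay with Hsc70-4 at ranks 2005, 306 and 1523. Of 47 DNA replication genes 11 (23.4%) were at a member, with 13, 7 and 8 in the replicates. CG13933/PolD2, with a subunit of DNA polymerase delta, ranked 863, 566 and 537, and RnrS/CG34231, with the small subunit of ribonucleotide reductase, ranked 1481, 642 and 1098. Replication genes thus had a lower share than repair genes in the thresholded list and in replicates 2 and 3, and a slightly higher one in replicate 1.

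Other lists of broadly used functions ranged from 10% to 30.3% of their genes. Mediator, TFIID and general transcription factors had 15 of 51 (29.4%) at a member, among them Ssl1 and MED30, a Mediator subunit paired with the translesion polymerase gene Rev1. Aminoacyl-tRNA synthetases, which charge tRNAs, had 10 of 33 (30.3%), with SerRS and IleRS the strongest. This list has only 8 isolated genes, and none of them had a thresholded summit. Nuclear pore proteins had 6 of 23, splicing factors 7 of 33, oxidative phosphorylation subunits 15 of 79 and cell cycle regulators 7 of 37. Bub3/Cap-D2, which pairs a spindle checkpoint gene with a condensin gene, ranked 1178, 1367 and 820, and CG3281/aurA, with the mitotic kinase Aurora A, ranked 807, 1011 and 1745.

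Among genes in a pair, nuclear pore proteins were at 31.6% and splicing factors at 24.1%, near and below the 31.4% of all genes in a pair. Mediator and general transcription factors were at 40.5%, synthetases at 43.5%, oxidative phosphorylation subunits at 35.7%, cell cycle regulators at 36.8% and DNA replication genes at 34.4%. Proteasome subunits had 7 of 48, translation factors 6 of 56, mitochondrial import proteins 2 of 20 and CCT chaperonin subunits 1 of 8. These shares, 10% to 14.6%, are near the 11.4% of all genes. Among genes in a pair they were at 26.9%, 22.2%, 25% and 14.3%, all below the 31.4% of all genes in a pair. Hat1/Rpn5 ranked 578 among thresholded regions and CG10324/CCT3 ranked 3179, without a region of replicate 2 at its summit. Cell cycle regulators and translation factors were reached mostly at promoters that were not divergent. A thresholded summit at any promoter was found for 18 of 37 and 21 of 56, and 7 and 6 of these were at a member.

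Of 117 cuticle proteins, 36 neural and glial markers and 32 segmentation and homeotic genes, 0 lay at a member, in the thresholded list and in each replicate. Such genes are seldom arranged head to head, since 11, 2 and 0 of them are in a pair. Of 179 chemosensory receptors 26 are in a pair and 1, Ir60e, was at a member. Mesoderm and muscle markers had 1 of 36, the gene mbc opposite Nup98-96, and blood and fat body markers 1 of 24, PPO3. Germ line markers had 3 of 24 at a member, near the 11.4% of all genes. Of these 24 markers 10 are in a pair. The member of piwi, the gene of a small-RNA silencing protein, was at ranks 2042, 1213 and 3223. Segmentation genes and neural markers had 6 genes each, of 32 and 36, with a thresholded summit at a promoter that was not divergent. These shares are slightly below the 20.6% of all genes with a thresholded summit at any promoter. Among isolated genes they were 6 of 31 and 6 of 32, above the 950 of 7983 of all isolated genes. Cuticle proteins and chemosensory receptors had 0 and 1 gene with a thresholded summit at any promoter. A region names a pair of genes and does not say which of them it serves, so each listed gene brings its neighbour with it. In 5 of the 172 members that touch the 14 lists, both nearest genes belonged to these lists.

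**Figure D4:**
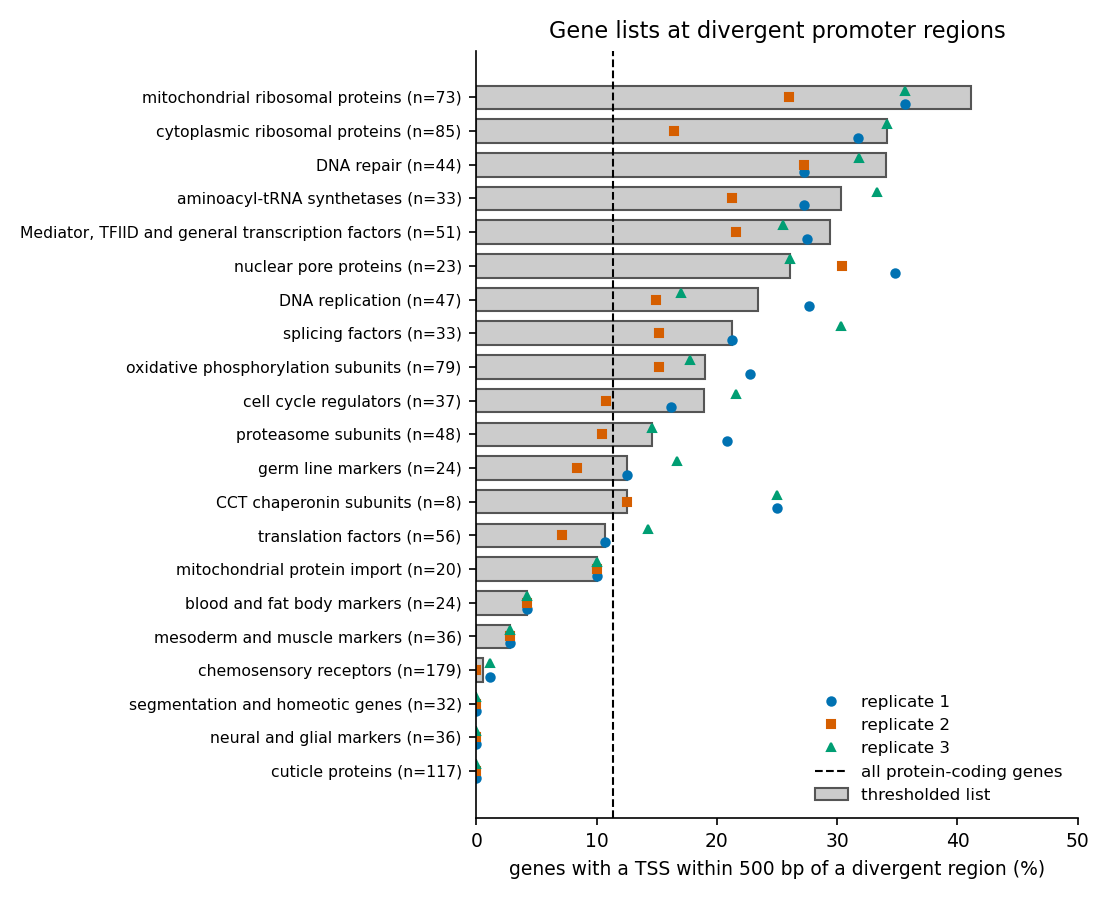
Share of the genes of each list with a TSS within 500 bp of a divergent promoter region (%, from 0); bars are the thresholded list, points the top regions of each replicate and the dashed line all protein-coding genes at 11.4%. Mitochondrial ribosomal proteins are the highest at 41.1%, and cuticle, neural and segmentation genes are at 0.

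Members carried the DRE, CGATA and the core of Motif 1 more often than single-gene promoter regions did. Windows of 100 bp to either side of the summit were searched on both strands. The DRE, TATCGATA, was in 11.2% of members and 5.71% of single-gene regions. For comparison it was in 7.37% of windows of the same length at all 13968 promoters, centred 100 bp upstream of the outermost TSS. It was in 8.40% of 1703 midpoints of head-to-head pairs without a thresholded summit. These pairs reach TSS distances of 1000 bp and were not matched to members by distance, here and for the motifs below. TSSs were over 500 bp apart in 598 of all 2462 pairs and in 75 of 804 head-to-head members. Members were above single-gene regions by 5.44 percentage points. This difference was 5.41, 3.39 and 5.85 in replicates 1, 2 and 3 (4.88 ± 1.32, SD, n = 3; exact sign-flip permutation test, two-sided, p = 0.25). It was 2.03 points in windows of 50 bp to either side and 8.90 points in windows of 150 bp.

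CGATA, which every DRE contains, was in 48.7% of members, 35.9% of single-gene regions, 38.4% of all promoters and 41.6% of pair midpoints without a summit. The replicate differences from single-gene regions were 10.7, 10.8 and 11.4 points (10.9 ± 0.375, SD, n = 3; exact sign-flip permutation test, two-sided, p = 0.25), alike in all 3. Without a DRE in the window it was in 37.5% of members and 30.2% of single-gene regions. By TSS distance up to 100 bp, to 200, to 300, to 400, to 500 and beyond 500 bp, the DRE was in 9.47%, 16%, 11.3%, 13.4%, 11.1% and 2.67% of members. There was no steady trend, and the last class holds 75 members. Members with 2 or more CGATA that were not in 1 DRE made up 19.2%, against 14.3% of single-gene regions.

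The core of Motif 1, GGTCACAC, was in 7.72% of members, 4.27% of single-gene regions, 3.74% of all promoters and 5.99% of pair midpoints without a summit. Replicate differences were 3.78, 2.58 and 2.57 points (2.98 ± 0.694, SD, n = 3; exact sign-flip permutation test, two-sided, p = 0.25). The difference of 3.45 in the thresholded list was 0.0519 when TSSs had to be within 250 bp, 1.51 with only the outermost TSS of each gene, 1.62 in the higher-signal 50% of the list, 2.21 over regions backed by all 3 replicates, 2.29 without replicate 3, 0.621 in windows of 50 bp to either side and 6.60 in windows of 150 bp. DRE and Motif 1 core were seldom together, in 4 members. Either of them or CGATA was in 428 members (52.5%) and in 38.0% of single-gene regions.

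GAGAG and the initiator went the other way. GAGAG, the core site of the GAGA factor found at developmental and paused promoters, was in 12.7% of members and 25.7% of single-gene regions, beside 22.1% of all promoters and 14.6% of pair midpoints without a summit. Replicate differences were -14.0, -10.4 and -13.0 points. In this element the members thus lie near the head-to-head pairs without a thresholded summit. The initiator core TCAGT was in 28.4% and 34.3%. TATAAA was in 37.7% of members and 29.5% of single-gene regions, beside 37.0% of all promoters and 40.5% of pair midpoints without a summit, and its replicate differences were 11.1, 13.4 and 9.44 points. That element and those named next were thus more frequent in members than in single-gene regions, but TATAAA in members was near its share at all promoters. The E-box CAGCTG was in 15.0% and 10.7%, Motif 6 (GTATNTTT) in 14.2% and 10.7%, and Motif 7 (CANCCCTA) in 5.27% and 3.18%. At all promoters these 3 were in 11.6%, 11.4% and 2.40%. At pair midpoints without a summit they were in 12.7%, 13.6% and 2.94%, so Motif 6 in members was near such pairs.

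The remaining motifs were CACGTG (2.57% of members and 2.46% of single-gene regions) and GCCAT, the core of the Pho site (26.2% and 28.3%). To these come AGGNGGC, from the CTCF site (4.78% and 5.57%), TTCCCGC, from the E2F site (1.72% and 1.95%), and CAGGTAG, the site of Zelda (0.613% and 0.868%). Replicate differences were -1.25, -2.14 and -2.72 points for GCCAT and -1.23, -1.46 and -1.30 for AGGNGGC, so members were lower in each. For CACGTG members were higher in each, by 0.429, 0.309 and 0.295 points. For TTCCCGC and CAGGTAG the replicates differed in sign. In all, 14 motifs were searched. The windows of members had a median GC content of 34.8% and those of single-gene regions 37.8%, and the part of base composition in these differences was not tested. A match is letters in a window and not a site shown to be used.

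**Figure D5:**
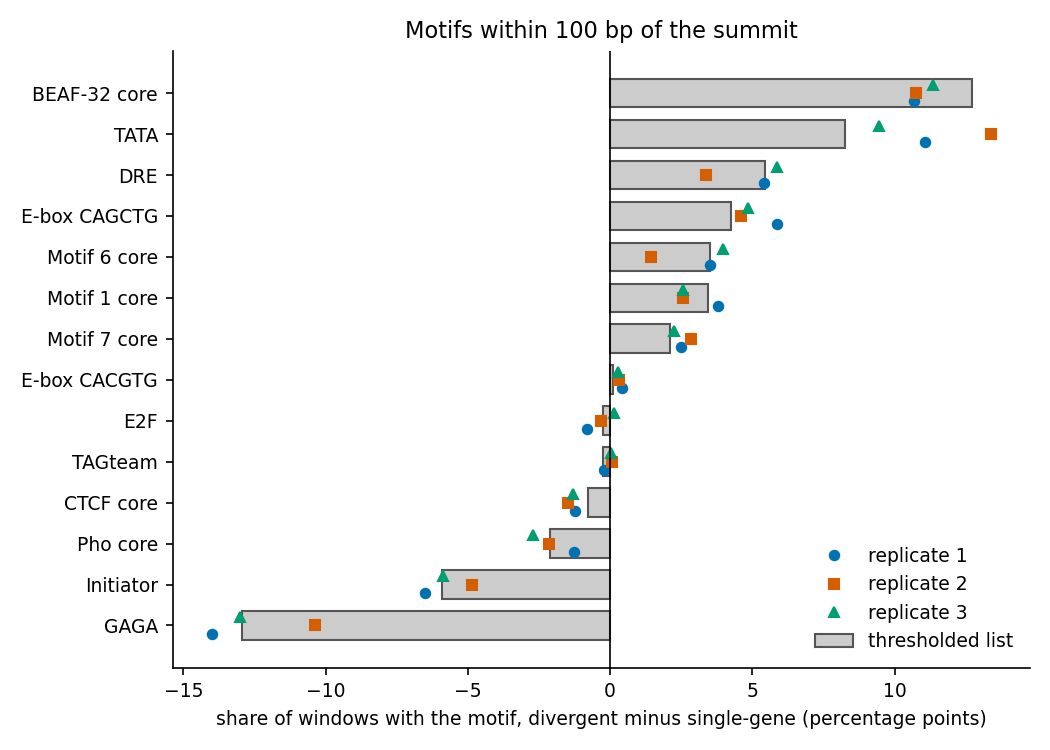
Share of windows with a motif at divergent minus single-gene promoter regions (percentage points) within 100 bp of the summit; bars are the thresholded list and points the top regions of each replicate. In the thresholded list the BEAF-32 core CGATA is highest, with replicates at 10.7 to 11.4; TATA is above it in replicates 1 and 2, at 11.1 and 13.4, and GAGA is lowest in every list, with replicates at -14.0 to -10.4.

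Members also differed in what surrounds the summit. It was intergenic in 69.1% of members and 52.1% of single-gene regions, in a 5′ UTR in 21.1% and 15.5%, and in an intron in 9.07% and 30.4%. Part of this follows from the rule, since a summit between head-to-head TSSs lies upstream of both nearest TSSs. A TSS of a non-coding gene lay within 500 bp in 11 members (1.35%) and 87 single-gene regions (6.29%). By arm, the share of head-to-head pairs with a thresholded summit was 37.2% on 3R, 34.5% on 3L, 31.2% on 2L, 25.7% on 2R and 23.3% on X, and 0 of 11 pairs on 4 had one. In each replicate 3R was the highest. Of the large arms X was the lowest in replicates 1 and 3, and 2R in replicate 2.

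Members are not all separate promoters. There were 773 with 2 genes, 38 with 3 and 5 with 4 or more. They fell on 767 distinct pairs of nearest genes, and 49 pairs held 2 members each. One member held 10 annotated genes, all of them pre-mod(mdg4) units, which supply alternative ends to mod(mdg4) transcripts by trans-splicing. It is thus a head-to-head promoter in the annotation more than a pair of neighbours. Its ranks were 423, 122 and 657. PIG-M/NC2alpha held 5 genes and ranked 166, 210 and 299.

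At the edge of the rule, the members whose farther TSS was closest to 500 bp were CG15528/Jasper at 500 bp, Apc/spg at 499 bp and Nepl19/Nepl20 at 495 bp. Just outside it were CG31626/Hr39 at 502 bp, caly/CG42837 at 503 bp and app/CG32100 at 504 bp. Their thresholded ranks were 3818, 4655 and 1954 inside and 3094, 1417 and 1397 outside.

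The tagged gene itself is at a member, chif/CG4455, which was picked out after its values were seen. The summit at 2L:16352754 lay 126 bp from the chif TSS and 180 bp from that of CG4455, which are 306 bp apart. It had a thresholded rank of 3733 and ranks of 4066 and 7799 in replicates 1 and 3, and no region of replicate 2 held it. How much of the chif promoter the transgene carries is not given in the sources used here, and reads from a transgene and from the native gene cannot be told apart.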

How the data were processed

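ChIP-seq with anti-GFP was done on 3 biological replicates of 1 group of embryos. The authors deposited lists of regions on dm6, 1 for each replicate, 1 for their pooled reads and 1 thresholded with the irreproducible discovery rate, per the notes deposited with the samples. Each region has a deposited signal, which is the authors' own score and was used only to rank regions within a list, and a summit offset from its start. For the aligner, the caller and the library behind the control file, the entry is not given in the sources used here. Read counts are not part of the lists, which leaves the depth of each sample unknown.

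A TSS was the 5′ end of any transcript of a protein-coding gene in the Ensembl annotation, release 115, of BDGP6.54, the same Release 6 assembly as dm6. It gave 19630 positions for 13968 genes. Positions are 1-based. Sequence came from the RefSeq copy of Release 6. A pair or gene counted as reached when a summit lay in its window. Where lists were compared, a summit inside a region was the overlap asked for. The exact sign-flip test ran over the 3 replicates, and no test over regions or genes was made. The scripts were tested on simulated regions with known answers. Python 3.11.15, NumPy 2.4.6, SciPy 1.17.1 and matplotlib 3.10.9 were used.

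Named members are the 12 of highest signal, the 2 of highest signal in each gene list, of which the text gives a part, the 3 with the smallest and the 3 with the largest distance between TSSs, those with 4 or more genes, the 3 nearest the 500 bp limit on either side, and the 3 with the widest spread of ranks. A few members that this rule names are not reported here. The members, gene lists and motifs were chosen with earlier results of these data known. Alternatives were TSS distances of 250 and 1000 bp, the outermost TSS only, the higher-signal 50% of each list, regions backed by all 3 replicates, each replicate left out, other overlaps, windows and pair distances. Lists on dm3 and signal tracks were not used here.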

Additional observations from a re-analysis of the deposited data

How the results depend on the processing

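The excess of head-to-head pairs over isolated genes kept its direction under all 10 alternatives, from 13.9 to 28.4 percentage points and from 15.4 to 18.2 with each replicate left out. The TSS distance does not enter it and was not varied there. The DRE difference kept its direction under 11 alternatives, from 2.03 to 8.90 points, and that of the Motif 1 core from 0.0519 to 6.60 points. None of these tests could pass a threshold of 0.05 with 3 replicates. With each replicate left out, a region had to be backed by both others, so the lists are shorter.

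The count of 816 members became 510 with TSSs within 250 bp, 461 in the higher-signal 50% of the list, 465 with backing by all 3 replicates and 500 to 641 with each replicate left out. The share of summits between the TSSs was 75.9% with only the outermost TSS of each gene. The median distance between TSSs was 235 bp with TSSs within 250 bp and 306 bp within 1000 bp. The median distance from the midpoint was 39.8 bp within 250 bp, 86.5 bp within 1000 bp, 69.5 bp with the outermost TSS, 61.8 bp in the higher-signal 50%, 63.5 bp with backing by all 3 replicates and 62.5 to 65.3 bp with each replicate left out. Backing by all 3 replicates was 84.8% in the higher-signal 50%, 43.3% with a reciprocal overlap of 50%, 36.0% with 2500 top regions and 61.3% to 78.6% with each replicate left out. Shorter lists and fewer replicates make these counts smaller or larger by construction.

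The difference in signal percentile changed direction, to -6.00 in the higher-signal 50% of the list and -1.13 with backing by all 3 replicates, and ran from -4.64 to 5.97 with each replicate left out. It was 10.5 with TSSs within 250 bp and 4.21 within 1000 bp. The cause was not tested. No paired analysis was possible because there is 1 group only.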

Other observations

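Many more head-to-head promoters held a summit below the threshold. In the whole pooled list of 30000 regions, 1528 of 2462 head-to-head pairs (62.1%) had a summit in the 500 bp window on their midpoint, and for 769 of them the pooled list but not the thresholded list gave one. Of 7983 isolated genes, 2152 (27.0%) had a summit in this longer list. The length of that list is a fixed maximum, so these shares depend on it.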
